A study of Mus musculus with 10 samples.

Results

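The subunit genes of the GABA-A receptor *Gabra2*, *Gabra3*, *Gabra4*, *Gabra5*, *Gabrb1*, *Gabrb2* and *Gabrd* were taken by symbol from a gene table of cap analysis of gene expression (CAGE), a method that counts the capped 5′ ends of RNAs. They are 7 of the 15900 genes in the table, and all 7 passed the filter on low values. No cut on expression values chose them, but they were chosen with earlier results of these data known.

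The RNA came from the whole hippocampus of 10 male ICR mice aged 9 to 10 weeks, with 2 mice in each of 5 groups. The pre-SE mice had no pilocarpine (PILO); the labels call them untreated, and the methods give them saline instead. In the other 4 groups status epilepticus (SE), a state of continuous seizure, was induced with PILO at 290 mg/kg after methyl scopolamine, and diazepam was given to end it. The SE 6 h and SE 2 days mice were sampled 6 h and 2 days after SE, and the SE + LEV 6 h and SE + LEV 2 days mice also received the antiepileptic drug levetiracetam (LEV) by mouth at 360 mg/kg, as 1 dose in the 6 h group and 5 doses in the 2 days group. PILO, SE and diazepam went together in these mice, so their effects cannot be told apart, and diazepam itself binds many GABA-A receptors. The comparisons ask how SE altered the RNA of the hippocampus and whether LEV moved it back.

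GABA-A receptors are ligand-gated chloride channels that carry most fast inhibition in the forebrain, and each channel is put together from alpha, beta and further subunits. The alpha and the third subunit set where a receptor sits: receptors with gamma subunits and alpha2 or alpha3 lie largely at synapses, whereas those with delta or alpha5 lie largely outside them and carry a steady, tonic current. In the dentate gyrus delta pairs chiefly with alpha4, and in pyramidal cells alpha5 is a prominent extrasynaptic subunit.

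In the GENCODE annotation of mm9, 3 of the 7 genes form a cluster on chromosome 5. *Gabra2* was at chr5:71352296-71487088 and *Gabra4* at chr5:71960973-72049547, both on the minus strand, and *Gabrb1* followed at chr5:72091171-72529628 on the plus strand. The starts of *Gabra4* and *Gabrb1* were 41623 bases apart in that annotation. RefSeq, in the later build GRCm38.p6, has a further *Gabrb1* start that lies only 387 bases from the *Gabra4* start, within the *Gabra4* transcript and pointing the other way. The remaining genes were *Gabrd* at chr4:154759089-154772221 on the minus strand, *Gabra5* at chr7:64663060-64765379 on the minus strand, *Gabrb2* at chr11:42233259-42446092 on the plus strand and *Gabra3* at chrX:69678020-69902187 on the minus strand. *Gabrb1*, *Gabra5* and *Gabra3* overlap other annotated genes, and since it is not stated whether tags were assigned by strand, tags of these neighbours could be included in their values.

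The promoters below show the close pair of starts on chromosome 5 and the *Gabrb2* window that also held a searched motif. Each runs 5′ to 3′ along its gene from 250 bases before to 50 bases after the RefSeq start, in GRCm38.p6, and capitals mark the 9-letter motif GCGNGGGCG of the early growth response (EGR) factors on either strand.
Gabra4, chr5:71658259-71658558, minus strand: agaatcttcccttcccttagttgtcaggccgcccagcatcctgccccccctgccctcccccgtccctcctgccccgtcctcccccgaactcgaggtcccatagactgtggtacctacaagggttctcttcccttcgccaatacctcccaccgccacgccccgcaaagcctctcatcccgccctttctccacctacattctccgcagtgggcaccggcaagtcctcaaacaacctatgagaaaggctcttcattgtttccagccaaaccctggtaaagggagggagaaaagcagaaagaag
Gabrb1 upstream start, chr5:71657671-71657970, plus strand: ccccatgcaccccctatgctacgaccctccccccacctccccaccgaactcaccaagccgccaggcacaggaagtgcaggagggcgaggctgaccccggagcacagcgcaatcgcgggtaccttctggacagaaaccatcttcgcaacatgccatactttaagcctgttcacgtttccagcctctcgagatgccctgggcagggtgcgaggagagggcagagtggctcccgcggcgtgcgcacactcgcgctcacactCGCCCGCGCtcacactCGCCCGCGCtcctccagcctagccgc
Gabrb2 first start, chr11:42420190-42420489, plus strand: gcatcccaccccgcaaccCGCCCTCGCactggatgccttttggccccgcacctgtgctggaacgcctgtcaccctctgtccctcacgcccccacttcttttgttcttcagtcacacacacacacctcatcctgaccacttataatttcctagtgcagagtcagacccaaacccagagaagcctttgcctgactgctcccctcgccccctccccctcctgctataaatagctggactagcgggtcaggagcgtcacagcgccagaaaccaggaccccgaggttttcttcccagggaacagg

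RefSeq promoters were found for 6 of the 7 genes, in 10 windows of 300 bases, and *Gabrd* had no entry. The EGR motif was searched because Egr3, an activity-induced factor of this family, is known to drive *Gabra4*. It was present in 2 of the 10 windows, both shown above, and in 5.55% of 32851 mouse promoter windows of the same length. In the *Gabrb1* window it occurred in a pair, beginning 8 and 24 bases after the start, and in the *Gabrb2* window it lay at bases 19 to 27 of the printed sequence. The *Gabra4* window held no match to these letters. Neither the cAMP response element TGACGTCA, present in 1.79% of all windows, nor the AP-1 motif TGANTCA, present in 7.81%, occurred in any of the 10 windows. Both strands were searched for each motif, and no window held more than 1 kind of motif.

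The libraries held 10540698 to 51710968 tags, a 4.91-fold range, recovered from the deposited CPM (tags per 1000000 tags of a library). The 7 genes rested on 83 to 9709 tags each per library, with the fewest for *Gabrd*. Neuron markers summed to 7150 to 10660 CPM in every library. Choroid plexus markers, which belong to a tissue next to the hippocampus, ranged from 8.88 to 4031 CPM and differed as widely within groups (8.88 and 4031 CPM in the SE 6 h mice) as between them. Their part in the results below was not tested. Nothing states that the mice of a group were handled separately, so the p-values measure the spread between these mice only.

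In the hippocampus before SE, *Gabra5* and *Gabra2* gave the most tags and *Gabra3* and *Gabrd* the fewest. CAGE counts 1 tag per capped RNA, so CPM can be set side by side between genes without dividing by length. Mean levels in pre-SE mice were 178 ± 14.2 CPM (SD, n = 2) for *Gabra5*, 146 ± 41.9 for *Gabra2*, 112 ± 19.9 for *Gabrb2*, 79.4 ± 17.4 for *Gabrb1*, 73.5 ± 10.7 for *Gabra4*, 21.8 ± 0.714 for *Gabrd* and 21.6 ± 2.06 for *Gabra3*. Within a library this order held in pre-SE replicate 2. In replicate 1 it held except that *Gabra2* (175.54 CPM) lay above *Gabra5* (167.68) and *Gabra3* (23.04) lay above *Gabrd* (22.28).

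**Figure D1:**
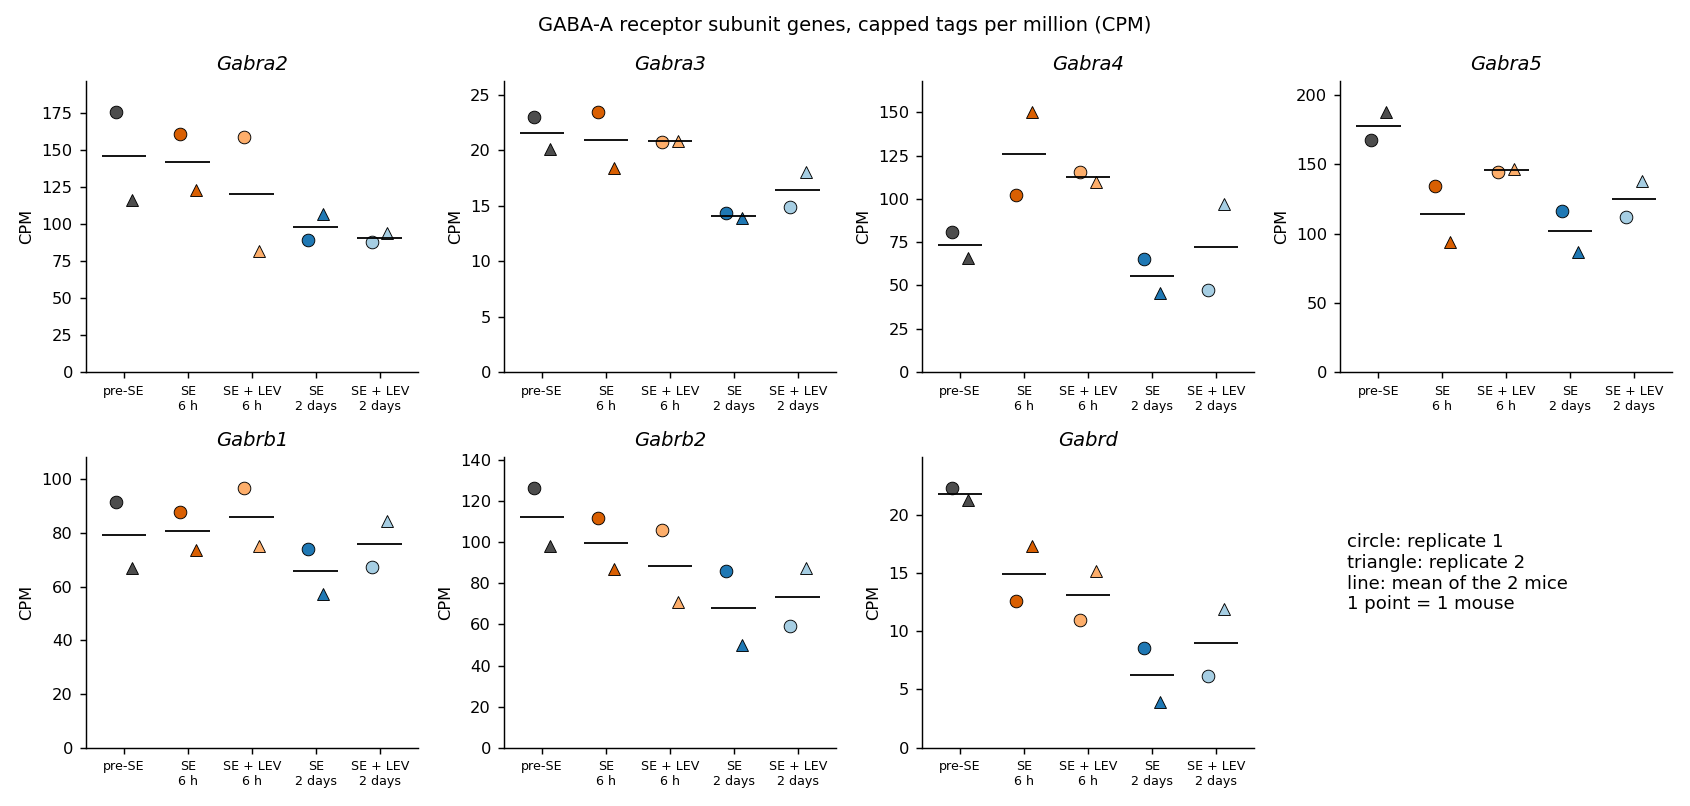
CPM of the 7 GABA-A receptor subunit genes (vertical axes, each from 0) in the 5 groups; each point is 1 mouse, circles are replicate 1, triangles replicate 2 and lines the mean of 2. *Gabrd* lies below both pre-SE mice (21.27 and 22.28 CPM) in all 8 mice after SE, and *Gabra4* lies above both pre-SE mice in all 4 mice at 6 h.

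*Gabrd* encodes the delta subunit of tonic, extrasynaptic receptors. Its level was 22.28 and 21.27 CPM before SE, 12.54 and 17.27 at 6 h without LEV, 10.96 and 15.18 at 6 h with LEV, 8.56 and 3.96 at 2 days without LEV, and 6.13 and 11.91 at 2 days with LEV. Every mouse after SE was below both pre-SE mice, and both SE 2 days mice were below every 6 h mouse. In the SE 2 days mice *Gabrd* fell to 0.287 of its pre-SE mean, with a logFC of -1.88 ± 0.43 (limma, adjusted p = 0.0322), where ± gives the standard error here and for each logFC. It was the only one of the 7 genes called in this comparison at an adjusted p of 0.05 or less, against 5.66% of all 15851 genes tested and 0.593% of them called lower. The call rested on single mice: the adjusted p from limma was 0.172 and 0.118 without pre-SE replicate 1 or 2, and 0.285 without SE 2 days replicate 2, where the logFC was -1.34. In whole tissue, fewer cells of a type and less RNA per cell cannot be told apart.

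At 6 h the *Gabrd* difference from pre-SE mice was smaller, with a logFC of -0.56 ± 0.43 (limma, adjusted p = 0.529). Between 6 h and 2 days the estimate was -1.32 ± 0.43 (limma, adjusted p = 0.126), while DESeq2 on the recovered tags called it (adjusted p = 0.0222). Against SE alone, LEV gave *Gabrd* a logFC of -0.19 at 6 h, with a 95% interval of -1.15 to 0.77, and 0.54 at 2 days, with an interval of -0.42 to 1.5. The intervals span both directions, and the SE + LEV 2 days mice lay on either side of the higher SE 2 days mouse. Against pre-SE mice, *Gabrd* in the SE + LEV 2 days mice had a logFC of -1.34 ± 0.43 (limma, adjusted p = 0.200; DESeq2, adjusted p = 0.0328).

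Dentate granule cells are the main hippocampal site of delta, so their markers were read beside it. The 8 markers tested summed to 797 to 858 CPM before SE, 603 to 617 at 6 h and 589 to 605 at 2 days without LEV, and 672 to 799.9 at 6 h and 582 to 655 at 2 days with LEV. Except in SE + LEV 6 h mice, which overlapped the pre-SE mice, the summed level was lower after SE without overlap, and 7 of the 8 had lower estimates at 2 days, with a median logFC of -0.56 beside -0.03 for all genes. Of these, *Tdo2* (logFC -4.99; limma, adjusted p = 0.0401) and *Plk5* (logFC -2.49; limma, adjusted p = 0.0249) fell, and both calls were lost without either pre-SE mouse or without SE 2 days replicate 2 (limma, adjusted p up to 0.243). The *Tdo2* call held under 12 of 22 alternatives, and was also lost at a pseudocount of 0.01 (limma, adjusted p = 0.156), with the replicate block (0.0639), without the trend (0.0610), without either SE 6 h mouse, without SE 2 days replicate 1 and in edgeR (0.0508). The part of granule cell number in the *Gabrd* result was not tested.

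*Gabra4*, the alpha subunit that pairs with delta in granule cells, was higher at 6 h in every mouse. Its level was 81.11 and 65.98 CPM before SE, 102.28 and 150.06 at 6 h without LEV, 115.43 and 109.67 at 6 h with LEV, 65.04 and 45.57 at 2 days without LEV, and 47.5 and 97.22 at 2 days with LEV. All 4 mice at 6 h were above both pre-SE mice, and both SE 2 days mice were below them. The logFC was 0.76 ± 0.35 at 6 h (limma, adjusted p = 0.288) and -0.43 ± 0.35 at 2 days (limma, adjusted p = 0.564), so neither passed the test. The mean was 1.72 times the pre-SE mean at 6 h and 0.752 of it at 2 days.

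From 6 h to 2 days *Gabra4* differed by a logFC of -1.18 ± 0.35 between SE mice (limma, adjusted p = 0.0919), again short of the threshold. DESeq2 called this difference (adjusted p = 0.00769), and limma did so when either SE + LEV 2 days library was left out of the shared estimate of spread (adjusted p = 0.0339 and 0.0340). LEV gave *Gabra4* a logFC of -0.14 at 6 h (95% interval -0.91 to 0.63) and 0.32 at 2 days (-0.45 to 1.09). With LEV at 6 h, the difference from pre-SE mice was a logFC of 0.62 ± 0.35 (limma, adjusted p = 0.604).

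The levels of *Gabra4* and *Gabrd* were also set against each other within each library. *Gabra4* gave 3.64 and 3.10 times the CPM of *Gabrd* in the pre-SE mice. The ratio was 8.16 and 8.69 at 6 h without LEV, 10.5 and 7.22 at 6 h with LEV, 7.60 and 11.5 at 2 days without LEV, and 7.75 and 8.16 at 2 days with LEV. All 8 mice after SE were above both pre-SE mice, and the 4 groups after SE overlapped each other. This ratio does not depend on how libraries are scaled, but it was chosen after the levels were seen and is given without a test; with 2 mice in each group the smallest p of a two-sided exact permutation test would be 0.333.

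**Figure D2:**
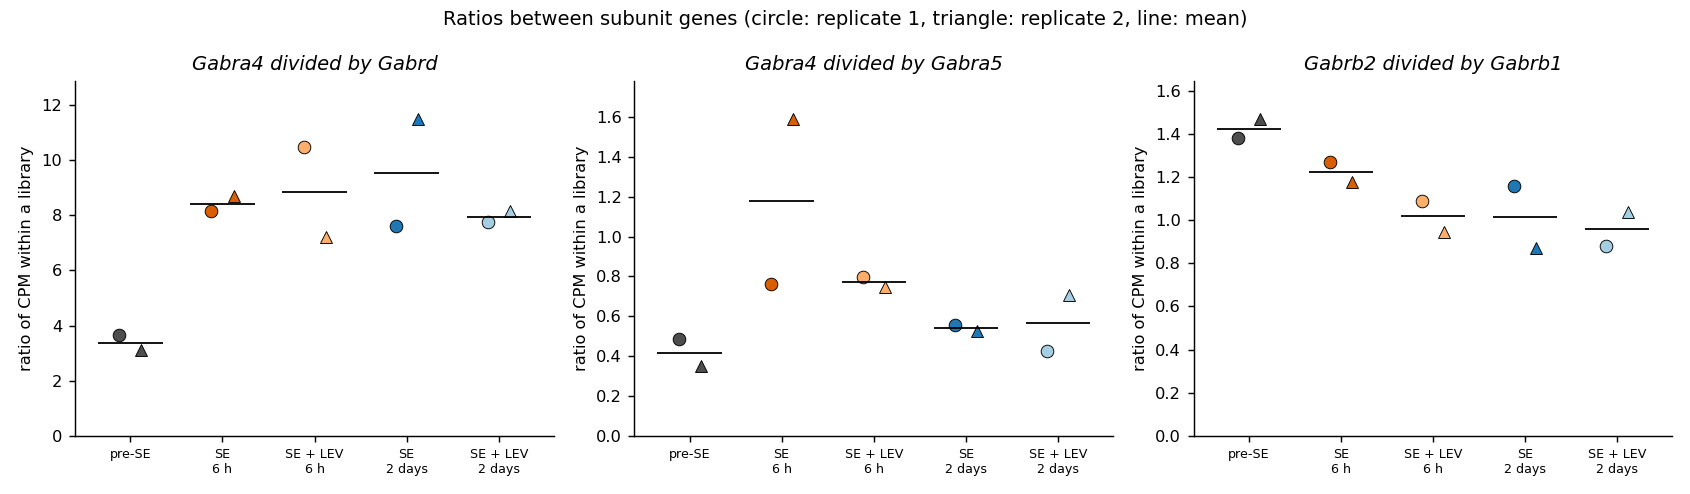
Ratios of CPM between pairs of subunit genes within each library (vertical axes, from 0) in the 5 groups; points are mice, lines are means. *Gabra4* divided by *Gabrd* was 3.10 to 3.64 before SE and 7.22 to 11.5 in the mice after it, and *Gabrb2* divided by *Gabrb1* was highest in the pre-SE mice.

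*Gabra5*, the extrasynaptic alpha subunit of pyramidal cells, was lower than in pre-SE mice in all 8 mice after SE. Its level was 167.68 and 187.76 CPM before SE, 134.1 and 94.21 at 6 h without LEV, 144.83 and 146.76 at 6 h with LEV, 116.56 and 86.98 at 2 days without LEV, and 112.2 and 137.88 at 2 days with LEV. The pre-SE mice did not overlap any other group, yet no comparison passed the test. The logFC was -0.66 ± 0.25 at 6 h (limma, adjusted p = 0.206) and -0.82 ± 0.25 at 2 days (limma, adjusted p = 0.0903). Both SE + LEV 6 h mice were above both SE 6 h mice, with a logFC for LEV of 0.38 (95% interval -0.17 to 0.92; limma, adjusted p = 1). At 2 days the LEV estimate was 0.30 (-0.24 to 0.85), and with LEV the 2 days mice differed from pre-SE mice by a logFC of -0.51 (limma, adjusted p = 0.515).

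*Gabra2*, a synaptic alpha subunit, varied widely between mice of a group. It was 175.54 and 116.26 CPM before SE, 160.63 and 122.72 at 6 h without LEV, 158.69 and 81.97 at 6 h with LEV, 88.87 and 106.94 at 2 days without LEV, and 87.79 and 93.69 at 2 days with LEV. The first 3 groups overlapped, and all 4 mice at 2 days were below both pre-SE mice. The logFC was -0.02 ± 0.33 at 6 h (limma, adjusted p = 0.979) and -0.55 ± 0.33 at 2 days (limma, adjusted p = 0.400). With LEV at 2 days, the difference from pre-SE mice was a logFC of -0.66 ± 0.33 (limma, adjusted p = 0.547). The LEV estimates were -0.30 (95% interval -1.03 to 0.43) at 6 h and -0.10 (-0.83 to 0.62) at 2 days.

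*Gabra3*, an alpha subunit that is scarce in the adult hippocampus, was between 18.43 and 23.45 CPM in the 6 pre-SE and 6 h mice. It was 14.33 and 13.9 CPM at 2 days without LEV and 14.91 and 18.03 with LEV. All 4 mice at 2 days were thus below the 6 other mice. The logFC in SE 2 days mice was -0.61 ± 0.25 (limma, adjusted p = 0.211), and at 6 h it was -0.05 ± 0.25 (limma, adjusted p = 0.939). The LEV estimates were 0.00 (95% interval -0.56 to 0.56) at 6 h and 0.21 (-0.34 to 0.77) at 2 days.

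Of the beta subunits, which form the GABA binding site together with alpha subunits, *Gabrb2* was lower at 2 days and *Gabrb1* overlapped. *Gabrb2* was 126.43 and 98.32 CPM before SE, 111.65 and 87.16 at 6 h without LEV, 105.86 and 71.15 at 6 h with LEV, 85.94 and 49.91 at 2 days without LEV, and 59.46 and 87.53 at 2 days with LEV. The 4 mice at 2 days were below both pre-SE mice, with a logFC of -0.77 ± 0.33 at 2 days without LEV (limma, adjusted p = 0.230) and -0.18 ± 0.33 at 6 h (limma, adjusted p = 0.819). *Gabrb1* ranged from 57.31 to 96.79 CPM over all 10 mice, with overlap in every comparison. Its logFC was 0.04 ± 0.26 at 6 h (limma, adjusted p = 0.959) and -0.27 ± 0.26 at 2 days (limma, adjusted p = 0.639).

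For neither beta gene did the LEV difference pass the test. For *Gabrb2* the LEV estimates were -0.18 (95% interval -0.92 to 0.55) at 6 h and 0.14 (-0.59 to 0.87) at 2 days. For *Gabrb1* they were 0.08 (-0.49 to 0.66) and 0.21 (-0.36 to 0.78). The ratio of *Gabrb2* to *Gabrb1* was 1.38 and 1.47 in pre-SE mice and 0.87 to 1.27 in the 8 mice after SE, so these did not overlap. This ratio too was chosen after the levels were seen.

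**Figure D3:**
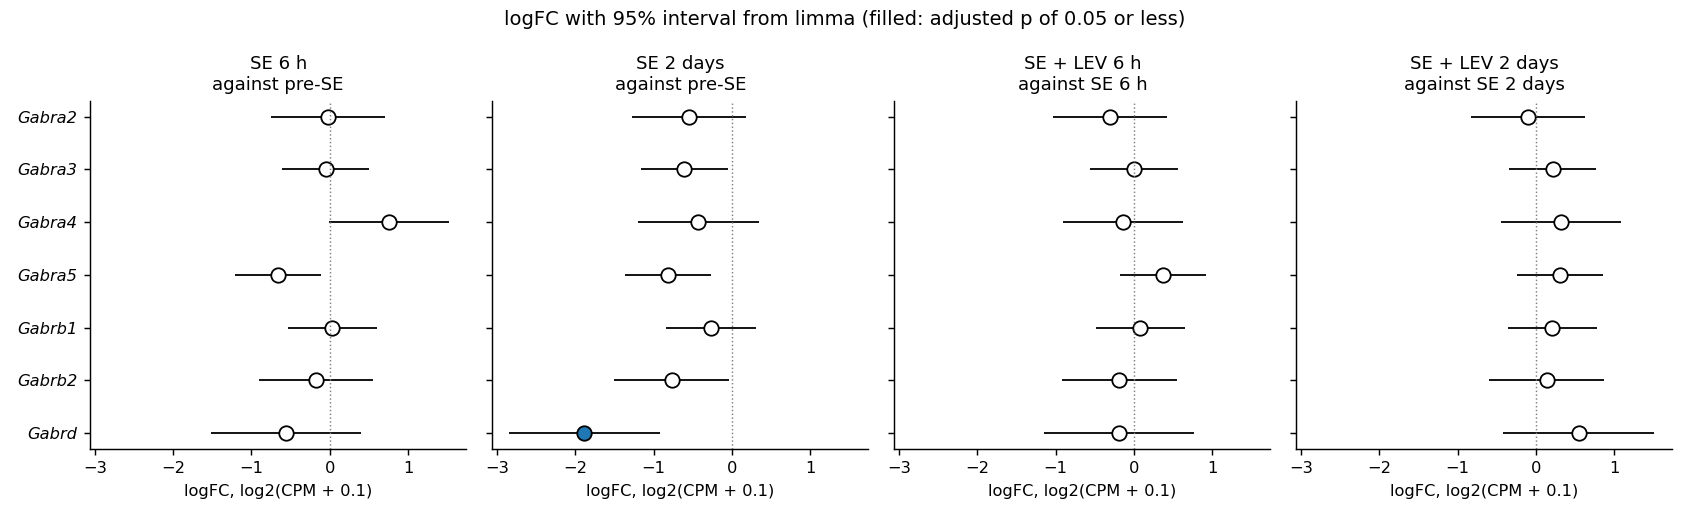
The logFC on the log2(CPM + 0.1) scale (horizontal axis) with its 95% interval from limma for the 7 genes in 4 comparisons; filled points have an adjusted p of 0.05 or less. *Gabrd* in SE 2 days mice is the only filled point, and the other estimates of that comparison also lie below 0.

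Read together, the 7 estimates were mixed in sign at 6 h, where those of *Gabra2* and *Gabra3* turned positive under rescaling, and lower at 2 days under every scaling. In SE 6 h mice none of them was called, against 2.96% of all genes; limma gave 1 of 7 (*Gabra5*) an unadjusted p under 0.05, edgeR and DESeq2 gave that to *Gabra4*, and neither called any. The pre-SE and SE 6 h mice did not overlap, with SE 6 h lower, for 2 of 7 genes, against 31.3% of all genes. In SE 2 days mice all 7 estimates were lower, against 52.8% of all genes, and 6 of 7 genes did not overlap the pre-SE mice and were lower, against 25.6% of all genes. The median logFC of the 7 was -0.61 at 2 days, beside -0.03 over all genes tested, and -0.05 at 6 h, beside -0.13. The pre-SE mice are shared by these comparisons. Of the 7 genes, 4 had an unadjusted p under 0.05 at 2 days in limma (*Gabra3*, *Gabra5*, *Gabrb2* and *Gabrd*), against 19.8% of all genes.

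In SE + LEV 2 days mice 5 of 7 genes lay below the pre-SE mice without overlap, against 17.5% of all genes, and the median logFC was -0.51. None of the 7 was called there by limma, against 2.85% of all genes, or by edgeR, against 465 of all genes. *Gabrd* was at an unadjusted p under 0.05 in limma and edgeR. DESeq2 called *Gabrd* there, against 819 of all genes. In SE + LEV 6 h mice against pre-SE mice none was called or had an unadjusted p under 0.05 by limma, edgeR or DESeq2, against 0.322% of genes called. Between SE 2 days and SE 6 h mice 5 of 7 were lower without overlap, against 20.1% of all genes. There limma called none, against 4.25% of all genes, with *Gabra4* and *Gabrd* at an unadjusted p under 0.05. Of the 7, edgeR called none with 3 at that level, against 476 of all genes called. DESeq2 called *Gabra4* and *Gabrd*, against 1293 of all genes. Between SE + LEV 2 days and SE + LEV 6 h mice limma called none, against 2.14%, with none at an unadjusted p under 0.05, and edgeR and DESeq2 called none with *Gabra4* at that level.

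Against SE mice of the same time, LEV gave no call among these 7. At 6 h limma called 0.0126% of all genes (2 genes), edgeR called 0 and DESeq2 called 75. At 2 days limma called 0, with 428 genes at an unadjusted p under 0.05; there edgeR called 0 and DESeq2 called 4. None of the 7 had an unadjusted p under 0.05 in either comparison by limma, edgeR or DESeq2. At 2 days 6 of the 7 estimates were above 0, with a median logFC of 0.21 beside 0.04 for all genes, and SE + LEV 2 days replicate 2 was above replicate 1 for all 7 genes. The LEV effects at 2 days and at 6 h were also compared directly: limma called 0 of all genes and none of the 7, with 377 genes and none of the 7 at an unadjusted p under 0.05, and edgeR called 0 and DESeq2 3 of all genes. The estimate for *Gabrd* was 0.73 ± 0.61.

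The summed level of neuron markers was also lower at 2 days. The 9 neuron markers tested summed to 9724 to 10660 CPM before SE, 7592 to 9829 at 6 h and 7150 to 8108 at 2 days without LEV, and 7199 to 7259 at 2 days with LEV. Their median logFC at 2 days was -0.43. Per 1000 CPM of these markers, *Gabrd* was 2.09 and 2.19 CPM before SE, 1.06 and 0.554 at 2 days without LEV, and 0.851 and 1.64 with LEV. *Gabrd* thus stayed lower at 2 days without overlap on this scale. At 6 h it overlapped without LEV, at 1.28 and 2.27, and was lower without overlap with LEV, at 1.1 and 1.91.

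On the same scale *Gabra4* was 7.61 and 6.79 CPM before SE, 10.4 and 19.8 at 6 h and 8.02 and 6.37 at 2 days. It was therefore higher at 6 h without overlap, and it overlapped the pre-SE mice at 2 days. *Gabra5* was 15.7 and 19.3 CPM per 1000 before SE, 13.6 and 12.4 at 6 h and 14.4 and 12.2 at 2 days, lower without overlap at both times. With LEV it was 14.5 and 18.5 at 6 h and 15.6 and 19 at 2 days, which overlapped the pre-SE mice on this scale. *Gabra2*, *Gabra3* and *Gabrb2* do not all keep their place: at 2 days *Gabra2* was 11 and 15 beside 16.5 and 12 before SE, which overlapped, and *Gabra3* was 1.77 and 1.94 beside 2.16 and 2.07, which did not. *Gabrb2* was 10.6 and 6.98 at 2 days beside 11.9 and 10.1 before SE, which overlapped.

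**Figure D4:**
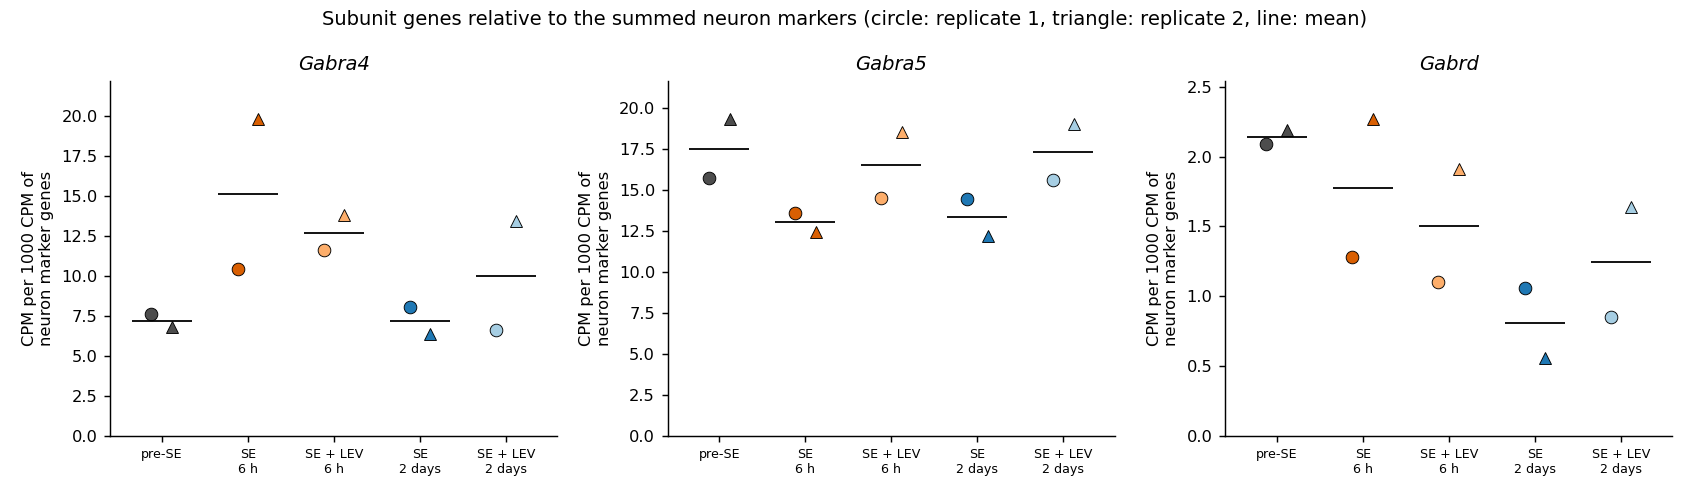
CPM of *Gabra4*, *Gabra5* and *Gabrd* per 1000 CPM of summed neuron markers (vertical axes, from 0) in the 5 groups; points are mice and lines are means. Both SE 2 days mice stay below both pre-SE mice for *Gabrd* and *Gabra5*, while for *Gabra4* all 4 mice at 6 h are above both pre-SE mice and the mice at 2 days lie on both sides of them.

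Marker levels of other cells differed between the groups as well. Pyramidal cell markers summed to 1058 to 1190 CPM before SE and 886 to 915 in SE 2 days mice. *Fibcd1* fell (limma, logFC -2.02, adjusted p = 0.0448), the only one of 10 called. That call held under 10 of 22 alternatives. It was lost without either pre-SE mouse, without SE 2 days replicate 2, without any mouse of the 6 h groups and in edgeR. Other losses were at a pseudocount of 1 (limma, adjusted p = 0.0554), under rescaling (0.0506), without the trend (0.0718) and with only the groups compared (0.0689). Oligodendrocyte markers summed to 5024 to 5463 CPM before SE and 1819 to 2766 in SE 2 days mice. Microglia markers summed to 372 to 437 CPM before SE and 865 to 1020 CPM in SE 2 days mice, with *Aif1* (logFC 2.28; limma, adjusted p = 0.00303) called. Of 9 astrocyte markers 6 had lower estimates, with a median logFC of -0.73, while *Gfap* (3.60; limma, adjusted p = 0.000955) and *Aqp4* (1.57; limma, adjusted p = 0.0107) rose, and *Aqp4* lost its call without either pre-SE mouse or without SE 2 days replicate 2 (limma, adjusted p up to 0.126). Thalamus markers, for tissue beside the hippocampus, summed to 158 to 187 CPM before SE and 82.3 to 105 in SE 2 days mice. The part of these shifts in the subunit levels was not tested.

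As shares of the summed CPM of the 4 alpha genes, *Gabra4* took 16.9% to 18.1% before SE, 24.3% to 38.9% at 6 h and 18.0% to 22.8% at 2 days without LEV, and 26.3% to 30.5% at 6 h and 18.1% to 28.0% at 2 days with LEV. Its share was above the pre-SE mice without overlap at 6 h. *Gabra5* took 37.5% to 48.1% before SE and 24.4% to 31.9% in SE 6 h mice, and it overlapped again in SE 2 days mice at 34.3% to 40.9%. *Gabra3* stayed between 4.72% and 5.81% in all 10 mice.

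Among the other subunit genes described here, *Gabrg1*, a gamma subunit, was lower at 2 days. It was 22.18 and 17.87 CPM before SE, 21.62 and 21.99 at 6 h and 9.54 and 9.22 at 2 days without LEV, and 9.67 and 15.53 at 2 days with LEV. Both groups at 2 days were below both pre-SE mice. The logFC was -1.08 ± 0.30 against pre-SE mice (limma, adjusted p = 0.0627) and -1.21 ± 0.30 against SE 6 h mice (limma, adjusted p = 0.0497). That call was lost at most other settings, with adjusted p up to 0.190 from limma when 1 library was left out. *Gabrg3* was between 22.13 and 32.14 CPM in all 10 mice, with a logFC of 0.00 at 2 days (limma, adjusted p = 0.999). *Gabrq*, the theta subunit, was between 0.05 and 0.30 CPM and rested on 1 to 13 tags.

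Genes that cluster, assemble and move the receptor were not called by limma or edgeR. Of 12 tested genes of receptor clustering at the synapse (of *Mdga2*, which has 2 rows, 1 was used), 2 at 6 h and 4 at 2 days had an unadjusted p under 0.05, DESeq2 called *Igsf9b* at both times and *Mdga1* at 2 days, and the largest estimate was *Igsf9b*, an inhibitory synapse adhesion gene (logFC 1.91 ± 0.48 at 6 h; limma, adjusted p = 0.0696). Gephyrin, *Gphn*, was between 67.35 and 107.29 CPM in all 10 mice. Of 16 genes of assembly and trafficking DESeq2 also called none, 0 had an unadjusted p under 0.05 at 6 h and 1 at 2 days, with the smallest p at 2 days for *Gabarap* (logFC 0.49 ± 0.20; limma, adjusted p = 0.204). Of 6 tested GABA-B receptor and auxiliary genes, limma called none, with 1 at an unadjusted p under 0.05 at 6 h (*Kctd12*, which DESeq2 called) and 0 at 2 days, and all 6 estimates were lower at 2 days, with a median of -0.50.

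In GABA metabolism, limma called 1 of 10 genes at 2 days, *Abat*, which was lower, against 0.593% of all genes called lower. Both edgeR and DESeq2 called it as well. At that time 9 of the 10 estimates were lower, and 5 genes had an unadjusted p under 0.05 in limma, against 19.8% of all genes. At 6 h limma, edgeR and DESeq2 called none, with 1 at an unadjusted p under 0.05. *Abat*, GABA transaminase, which breaks GABA down, was 252.86 and 292.07 CPM before SE and 152.21 and 107.13 at 2 days, with a logFC of -1.09 ± 0.25 (limma, adjusted p = 0.0322). The limma call held under 15 of 22 alternatives. It was lost without either pre-SE mouse, without SE 2 days replicate 2 and without either SE + LEV 6 h mouse. It was also lost without the trend (limma, adjusted p = 0.0621) and with only the groups compared (0.0598). The median logFC of the 10 at 2 days was -0.46, beside -0.03 for all genes.

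Of 8 genes known to act upstream of GABA-A subunit genes, limma called 3 higher at 6 h, against 2.76% of all genes. The median logFC of the 8 was 1.33, beside -0.13 for all genes, and 1 of the 8 estimates was lower. In limma 6 of the 8 had an unadjusted p under 0.05, against 17.7% of all genes. *Egr3* was 81.39 and 70.68 CPM before SE and 603.76 and 246.94 at 6 h, with a logFC of 2.35 ± 0.48 (limma, adjusted p = 0.0304). *Bdnf*, the neurotrophin that induces *Egr3*, had a logFC of 2.43 ± 0.45 (limma, adjusted p = 0.0178), and *Crem*, whose product ICER represses cAMP-driven promoters, 2.11 ± 0.34 (limma, adjusted p = 0.0101). At 2 days 1 of the 8 was called, *Stat3*, the transcription factor downstream of Janus kinases (logFC 2.18 ± 0.35; limma, adjusted p = 0.00560). Of the 8, edgeR called 4 at 6 h and 2 at 2 days (*Bdnf* as well), and DESeq2 called 6 at 6 h and 3 at 2 days (*Bdnf* and *Egr3* as well). Over all genes tested, edgeR called 517 at 6 h and 866 at 2 days, and DESeq2 called 1107 and 1607. Of the SE 6 h mice, *Egr3* was higher in replicate 1 and *Gabra4* in replicate 2. Any relation of *Egr3* to *Gabra4* in these mice was not tested. *Bdnf* lost its call without any of the 4 mice compared (limma, adjusted p up to 0.141), *Crem* without pre-SE or SE 6 h replicate 2 (limma, adjusted p up to 0.0960) and *Stat3* without SE 2 days replicate 2 (limma, adjusted p = 0.0734). The *Egr3* estimate was 1.70 without SE 6 h replicate 1 (limma, adjusted p = 0.154), and the call was also lost without either pre-SE mouse.

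Neurosteroids are potent modulators of delta-containing receptors. Of the 3 tested genes of their synthesis, 2 had lower estimates at 2 days, with a median logFC of -0.25 beside -0.03 for all genes. The other, *Tspo*, the mitochondrial translocator protein and also a marker of activated microglia, was called higher, against 5.07% of all genes. Its logFC was 3.75 ± 0.46 (limma, adjusted p = 0.00162), from 4.17 and 6.79 CPM to 66.44 and 80.15 CPM. None of the genes in these 6 lists of the pathway was called with LEV against SE by limma, edgeR or DESeq2, and 2 at 6 h and 1 at 2 days had an unadjusted p under 0.05. The largest LEV estimate with a small p was that of *Crem* at 6 h (-1.23 ± 0.34; limma, adjusted p = 0.612).

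Over the 10 mice, the CPM of the 7 genes were positively correlated in each of the 21 pairs, as a description of libraries that share scaling and groups. Pearson's r was highest for *Gabrb1* and *Gabrb2* (0.823), *Gabra3* and *Gabrd* (0.801), and *Gabra3* and *Gabrb2* (0.789), and lowest for *Gabra4* and *Gabra5* (0.179). *Gabra4* and *Gabrb1*, whose RefSeq starts lie closest together, had an r of 0.649. *Gabra4* and *Gabra2*, on the same chromosome and strand, had an r of 0.337.

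Among 14219 genes with a mean of at least 1 CPM, those most like each subunit gene over the 10 mice were named by Pearson's r on the same log scale. For *Gabrd* they were *Aifm3* (0.961), *Ntsr2* (0.957) and *Abat* (0.954). For *Gabra4* they were *Mir1906-1* (0.973), *Zfp566* (0.971) and *Dlg2* (0.963), and for *Gabra5* they were *Sema6c* (0.960), *Calm3* (0.959) and *Tle2* (0.958). For *Gabra2* they were *Slc25a4* (0.953), *Akap6* (0.952) and *Scyl3* (0.944), and for *Gabra3* they were *Lmtk3* (0.970), *Ltk* (0.959) and *Cntnap1* (0.949). For *Gabrb1* they were *Sarnp* (0.948), *Gm8325* (0.946) and *Celf4* (0.945), and for *Gabrb2* they were *Fam55c* (0.964), *Cpne4* (0.964) and *Serpini1* (0.960). No gene was among the first 3 of more than 1 subunit gene, and none of the 7 was among the first 3 of another.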

How the data were processed

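CAGE libraries of whole hippocampus from 10 mice were used. Per the methods, BWA 0.7.17 and HISAT2 2.0.5 placed the tags on mm9; the authors clustered them, dropped clusters under 0.1 CPM and deposited CPM per gene, that is, tags of a gene per 1000000 tags of a library. How clusters were summed to genes, and whether strand was used, is not given in the sources used here. Depth was recovered from the steps of the deposited values (rounded to 0.01 CPM), and 100% of values came out as whole tags. Intervals cover the spread between mice and do not separate counting error.

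The 15851 genes with at least 0.1 CPM in 2 libraries were tested with limma 3.58.1 (R 4.3.3) on log2(CPM + 0.1), which understates changes of low genes. All 10 libraries shared 1 estimate of spread with a trend, p-values were two-sided and adjusted by Benjamini-Hochberg over all genes, and genes at an adjusted p of 0.05 or less were called. logFC is the log2 difference of group means. Alternatives were other pseudocounts and filters, rescaling, a replicate block, a fit of only the groups compared, no trend, leaving out each library, and edgeR 4.0.16 and DESeq2 1.42.0 on the recovered tags. Scripts were tested on simulated data. There, for SE 6 h against pre-SE, 4.76% of genes given a log2 difference of 1 were recovered, and 47.4% at 2. Each size gave 1 false call. Genes that were not called may therefore still differ between groups.

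Besides the 7 members, the text names further subunit genes, the called genes of each list (at most 4 per direction, otherwise genes with the smallest p), and for each member the 3 genes with the highest r. The members and lists were chosen with earlier results of these data known. Some subunit genes are not reported here. Promoters are from RefSeq (GRCm38.p6), positions from GENCODE vM1 (mm9).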

Additional observations from a re-analysis of the deposited data

Results flagged for a closer look

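The SE estimates for *Gabra4* had opposite signs at 6 h (0.76) and 2 days (-0.43), and limma called neither. In CPM both SE 6 h mice were above, and both SE 2 days mice below, both pre-SE mice. Per 1000 CPM of neuron markers the SE 2 days mice (8.02 and 6.37) overlapped the pre-SE mice (7.61 and 6.79). A level below pre-SE mice at 2 days was thus seen in CPM but not on that scale. The difference between the effects was a logFC of -1.18 (limma, adjusted p = 0.0919).

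For *Gabra3*, both SE + LEV 2 days mice were above both SE 2 days mice in CPM, while both SE + LEV 6 h mice were just below the mean of the SE 6 h mice. On the log scale the LEV estimates were 0.00 at 6 h and 0.21 at 2 days, so no difference in direction was shown. The difference between the effects was a logFC of 0.21 (limma, adjusted p = 1). No group had the 4 mice that a test for a mouse far from the others needs.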

How the results depend on the processing

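With 2 mice in each group, calls near the threshold changed with 1 library, and estimates near 0 changed sign. Of the 7 genes, 1 was called in SE 2 days mice under every alternative except the crossed block below and leaving out pre-SE replicate 1, pre-SE replicate 2 or SE 2 days replicate 2, so leaving out 1 library gave 0 to 1. In SE + LEV 2 days mice against pre-SE mice DESeq2 called 1 of the 7 where limma called 0, and between SE 2 days and SE 6 h mice DESeq2 called 2 and leaving out 1 library gave 0 to 1. Over all genes DESeq2 called 819 and 1293 in these comparisons, beside 451 and 674 in limma. The cause was not tested.

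Under median-of-ratios rescaling, which moved the median of all genes at 6 h from -0.13 to -0.0047, the sign changed for *Gabra2* in SE 6 h against pre-SE (0.10), *Gabra3* in SE 6 h against pre-SE (0.0767), *Gabrg3* in SE 2 days against pre-SE (0.0226), *Gabra3* in SE + LEV 6 h against SE 6 h (-0.056). In edgeR the sign changed for *Gabra2* in SE 6 h against pre-SE (0.0889), *Gabra3* in SE 6 h against pre-SE (0.0871), *Gabrg3* in SE 2 days against pre-SE (0.063), *Gabra3* in SE + LEV 6 h against SE 6 h (-0.0609). In DESeq2 the sign changed for *Gabra2* in SE 6 h against pre-SE (0.089), *Gabra3* in SE 6 h against pre-SE (0.0914), *Gabrg3* in SE 2 days against pre-SE (0.0519), *Gabra3* in SE + LEV 6 h against SE 6 h (-0.0704). Leaving out 1 library changed the sign of these uncalled estimates, given with their lowest and highest logFC. For SE 6 h against pre-SE they were *Gabra2* (-0.32 to 0.27), *Gabra3* (-0.22 to 0.12), *Gabrb1* (-0.19 to 0.26), *Gabrb2* (-0.36 to 0.0048). For SE 2 days against pre-SE they were *Gabrg3* (-0.27 to 0.27). For SE + LEV 6 h against SE 6 h they were *Gabra2* (-0.78 to 0.18), *Gabra3* (-0.17 to 0.17), *Gabra4* (-0.42 to 0.14), *Gabrb1* (-0.0974 to 0.27), *Gabrb2* (-0.47 to 0.10), *Gabrd* (-0.42 to 0.0443). For SE + LEV 2 days against SE 2 days they were *Gabra2* (-0.24 to 0.0292), *Gabra4* (-0.20 to 0.84), *Gabrb2* (-0.25 to 0.53), *Gabrd* (-0.0017 to 1.09). For SE 2 days against SE 6 h they were *Gabra5* (-0.41 to 0.0959). 

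The mice of a replicate number are different animals, and the deviations of same-numbered mice correlated at -0.436 to 0.343 over pairs of groups, so the numbers were not taken as pairs. With the replicate block 1 of the 7 genes was called in SE 2 days mice (*Gabrd*), as without it. The pre-SE and SE 2 days mice correlated below -0.1 with SE + LEV 2 days mice, and with the replicate block crossed there, an alternative chosen after seeing the data, 2 of the 7 were called (*Gabrb2* as well). No other call on the 7 genes changed with either block. Depth limited *Gabrd* and *Gabrq* most.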
